A study of Mus musculus with 16 samples.

Results

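Genes of the islet blood vessels and their growth factor Vegfa were followed across the pancreatic islets of 8 inbred mouse strains. The 10 genes were set by symbol and were not chosen by their levels: Vegfa, its receptors Kdr and Flt1, the receptor kinases Tek and Tie1, the junction proteins Pecam1 and Cdh5, and Plvap, Emcn and Esm1. They are 10 of the 54146 genes listed in each table, and all 10 passed the filter that left 15191 protein-coding genes for testing.

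Whole-islet RNA was sequenced from mice of 26 weeks that were all fed a high-fat diet, so that no group on another diet serves as a control. The strains are 129S1_SvImJ (129, 10 libraries), A_J (AJ, 14), C57BL/6J (B6, 18), CAST_EiJ (CAST, 14), NOD_ShiLtJ (NOD, 10), NZO_HlLtJ (NZO, 4), PWK_PhJ (PWK, 5) and WSB_EiJ (WSB, 16), the founders of the Diversity Outbred mice, with no engineered allele in any of them. Of the 91 libraries, 45 carry a female and 46 a male label, with 3 females and 1 male in NZO and 1 female and 4 males in PWK. Each deposited table was taken as 1 library, and the labels do not say that each came from its own animal, so the tests measure the spread between libraries. Replicate numbers are names given here within a strain and pair no libraries.

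Islets hold a dense bed of capillaries with pores in their walls, through which glucose reaches the endocrine cells and hormones leave. Beta cells make VEGF-A, which binds the receptors KDR (VEGFR2) and FLT1 (VEGFR1) on the endothelium and maintains this capillary bed. A second pair of endothelial receptors, TEK (TIE2) and its partner TIE1, binds or modulates the response to angiopoietins, and cadherin 5 and PECAM1 hold endothelial cells together.

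The libraries held 1.69e+07 to 3.52e+07 expected counts in total, and the lowest count of any member in any library was 110 (Tek). Beta cell markers were high in every library (8 genes, summed level 166595 to 572664 TPM, a level scaled for transcript length and for the total within each library), as islets require. Acinar markers, which come from exocrine tissue around the islets, took between 1778 and 336075 TPM (9 genes). By their Xist and Y-linked counts, 12 libraries (6 of 129, 2 of NOD and 4 of WSB) went against their sex label, and NZO replicate 4 held Xist at 48 CPM (counts scaled to each library's total) beside Y-linked genes at 129, where the next highest library with Y-linked counts held 11.8. In bulk RNA, fewer endothelial cells and less RNA per endothelial cell cannot be told apart.

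The start sites of 7 of the 10 genes are in the RefSeq promoter table of build GRCm38.p6. The 250 bases before the start are shown for the 6 of these that were lower in NOD than in the other strains (below), 5′ to 3′ on the gene's strand, to show what sequence lies in front of genes that moved in the same direction. Capitals mark GGAAG on either strand (CTTCC on the strand shown), the core letters bound by ETS factors such as ERG and FLI1, which are known regulators of endothelial genes. No overlap with a second motif was considered.
Kdr, chr5:75978456-75978705, minus strand: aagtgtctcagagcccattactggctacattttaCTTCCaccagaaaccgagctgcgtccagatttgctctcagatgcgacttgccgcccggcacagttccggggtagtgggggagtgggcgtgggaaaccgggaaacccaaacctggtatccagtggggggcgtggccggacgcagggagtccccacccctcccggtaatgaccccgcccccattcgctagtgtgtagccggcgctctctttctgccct
Flt1, chr5:147726012-147726261, minus strand: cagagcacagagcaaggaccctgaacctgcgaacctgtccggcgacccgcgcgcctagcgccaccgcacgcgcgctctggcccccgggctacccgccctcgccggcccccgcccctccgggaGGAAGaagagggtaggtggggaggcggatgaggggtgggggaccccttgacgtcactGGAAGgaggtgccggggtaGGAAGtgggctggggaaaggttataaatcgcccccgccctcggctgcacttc
Tie1, chr4:118489850-118490099, minus strand: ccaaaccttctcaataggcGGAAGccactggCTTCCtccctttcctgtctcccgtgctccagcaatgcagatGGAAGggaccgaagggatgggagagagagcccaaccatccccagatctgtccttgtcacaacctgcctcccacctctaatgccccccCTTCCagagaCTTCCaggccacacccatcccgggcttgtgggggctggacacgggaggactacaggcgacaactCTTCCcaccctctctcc
Emcn, chr3:137340828-137341077, plus strand: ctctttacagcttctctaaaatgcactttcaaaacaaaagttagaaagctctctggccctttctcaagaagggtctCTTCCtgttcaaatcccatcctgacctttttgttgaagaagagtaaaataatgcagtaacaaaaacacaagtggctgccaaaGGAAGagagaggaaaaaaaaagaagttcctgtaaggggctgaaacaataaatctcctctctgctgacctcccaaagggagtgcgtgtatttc
Esm1, chr13:113209409-113209658, plus strand: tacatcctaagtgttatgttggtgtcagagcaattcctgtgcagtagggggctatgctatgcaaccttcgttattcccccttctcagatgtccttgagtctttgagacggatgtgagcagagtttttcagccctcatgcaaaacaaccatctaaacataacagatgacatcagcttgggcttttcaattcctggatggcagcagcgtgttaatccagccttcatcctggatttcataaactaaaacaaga
Vegfa, chr17:46032378-46032627, minus strand: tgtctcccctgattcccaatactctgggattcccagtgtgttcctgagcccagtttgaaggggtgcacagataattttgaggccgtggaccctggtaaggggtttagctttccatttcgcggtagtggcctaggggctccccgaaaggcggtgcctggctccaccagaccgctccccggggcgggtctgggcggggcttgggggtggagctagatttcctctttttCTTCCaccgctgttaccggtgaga

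Tie1 held 6 matches, Flt1 3, Emcn 2, and Kdr and Vegfa 1 each, whereas Esm1 and Tek (not shown) held 0. The same letters were found in 64.1% of all 32851 promoter windows of this length, so a match is common and describes only these windows. ACGTG, a form of the core of hypoxia response elements, was in 16.6% of all windows and in none of those shown. Other forms of that core and bases outside these windows were not searched, so the absence of ACGTG does not show that such elements are absent. A second start of Vegfa in the table, with the window chr17:46025164-46025413 on the minus strand, held 1 GGAAG and 1 ACGTG.

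Vegfa was the most abundant of the 10 genes, at a mean of 224 TPM (SD 62.9, n = 91), above 99% of the protein-coding genes of the autosomes and X. Plvap, which forms the diaphragms of capillary pores, was the most abundant endothelial member at 110 TPM (SD 35.5), followed by Esm1, a secreted proteoglycan of VEGF-stimulated endothelium, at 41.8 TPM (SD 18). Emcn (33.3 TPM), Kdr (31.4), Flt1 (24.1) and Pecam1 (23.9) lay close together, and Cdh5 (11.2), Tie1 (11.1) and Tek (4.31) were lowest. TPM values share 1 total per library, so they fall where acinar transcripts take more of it, and the strains were therefore compared on normalized counts.

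All 10 members differed between strains (edgeR quasi-likelihood F test, adjusted p from 3.8e-27 for Esm1 to 9.9e-11 for Tie1). A strain effect was called for 97.4% of all genes tested, so that the count of members is near the background, and the size and pattern of the differences carry the description. The difference between the 2 most distant strains was 4.20-fold for Esm1, 2.50-fold for Emcn, 2.12- to 2.28-fold for Pecam1, Kdr, Flt1, Plvap and Tek, 1.94-fold for Cdh5, 1.82-fold for Vegfa and 1.4-fold for Tie1. Of the 280 pairs of strains over the 10 members, 189 were called, against 50.5% of pairs over all genes, with 8 of 28 for Vegfa and 14 of 28 for Tie1 at the low end and 23 of 28 for Kdr at the high end.

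**Figure D1:**
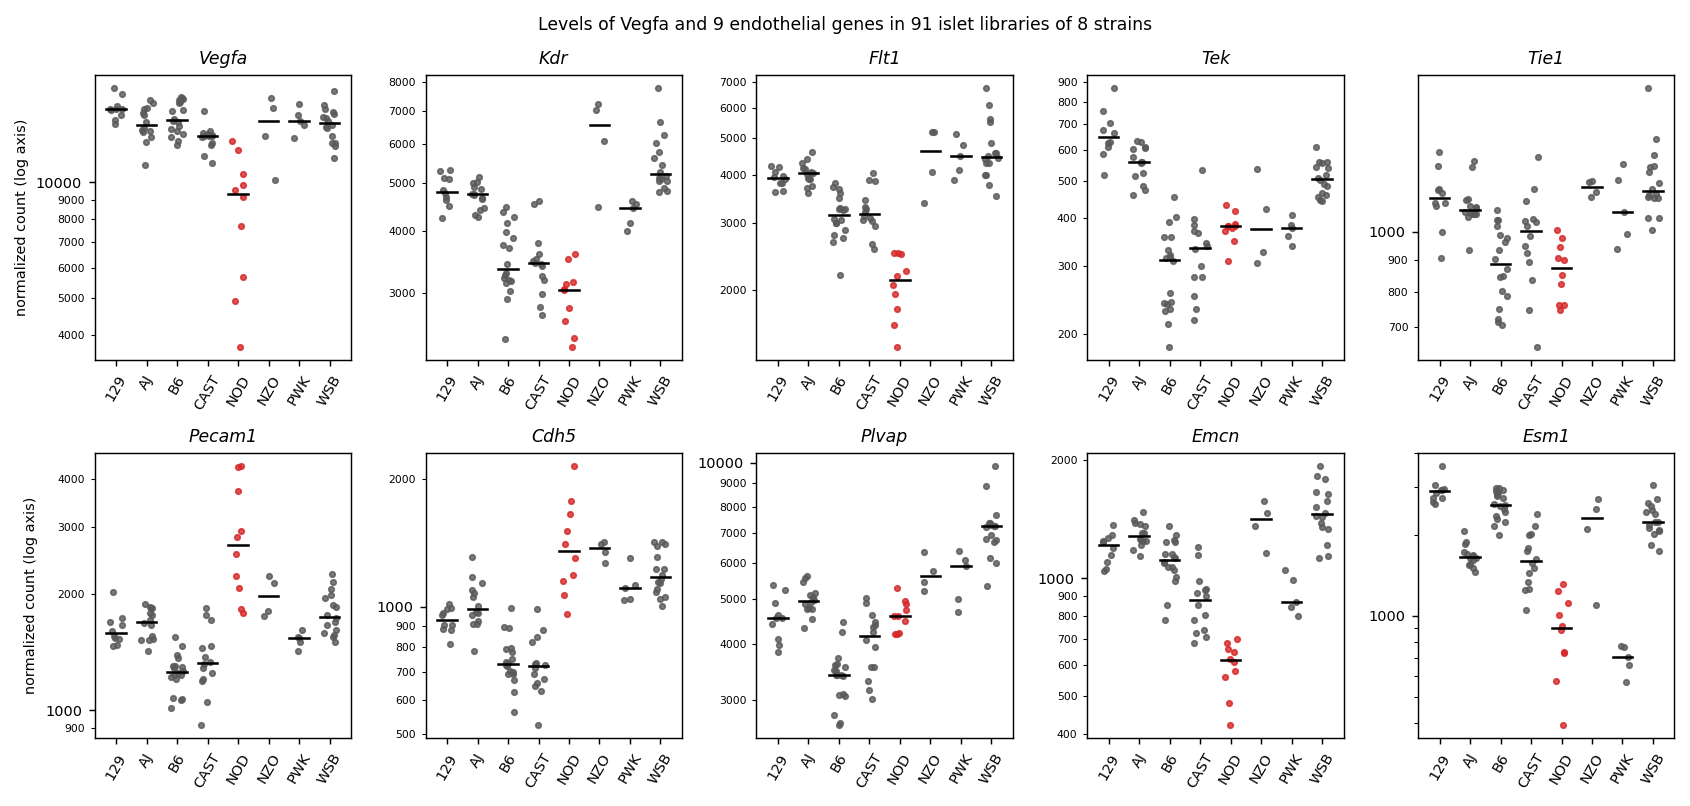
Normalized counts (log axis) of each gene in every library, by strain; each point is 1 library, black lines are strain medians and NOD is in red. NOD libraries sit lowest for Vegfa, Kdr, Flt1, Emcn and, close to B6, Tie1 by median, and highest for Pecam1, whereas PWK sits lowest for Esm1.

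Vegfa, the ligand, was nearly level over 7 strains and lower in NOD. Its normalized count was 3729 at the lowest, 9341 at the median and 12829 at the highest in NOD (n = 10), against 10147, 14293 and 17615 over the 81 other libraries. Of the 10 NOD libraries, 7 lay below every library of the other strains. The log2 fold change of NOD against the mean of the other 7 strains was −0.74 ± 0.08 (SE, adjusted p = 5.2e-13). Leukocyte markers were higher in NOD, and with their sum as a covariate the value was −0.22 (adjusted p = 0.087), which was not called. The other strains ran from 129 (15578 ± 1029, SD, n = 10) through B6, PWK, AJ, WSB and NZO to CAST (13067 ± 931, n = 14), and no neighbours in that order differed beyond their spread. The ends of the order did differ, with 129 above CAST by 0.26 ± 0.09 on the log2 scale (edgeR, adjusted p = 0.017). Only 129 (0.25 ± 0.08) and B6 (0.15 ± 0.06) were called higher than the mean of the others. Neither call held with the summed leukocyte markers as a covariate (0.09 and 0.02), nor did that of 129 without the 12 libraries that went against their sex label (0.21) or that of B6 without NZO replicate 4 (0.13).

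Kdr, the main signalling receptor for VEGF-A, was highest in NZO, where its 4 libraries held normalized counts of 7228, 7001, 6068 and 4474. WSB followed (4802, 5212 and 7789 as lowest, median and highest, n = 16), and these 2 strains did not differ beyond their spread (adjusted p = 0.17). At the other end NOD held 2334, 3044 and 3591 (n = 10). The NOD and NZO libraries did not overlap, with a log2 fold change of −1.08 ± 0.11 (adjusted p = 9.8e-15). B6 and CAST lay between, at medians of 3359 and 3441, and each was below the mean of the others (−0.34 ± 0.05 and −0.37 ± 0.06), though neither was called on sums of the libraries of each sample (−0.29 and −0.35).

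Flt1, which binds VEGF-A with high affinity and also limits its action on KDR, was also lowest in NOD. NOD libraries held 1421, 2121 and 2506 (lowest, median, highest), and 6 of 10 lay below all 81 others, whose lowest was 2195. The log2 fold change of NOD against the others was −0.93 ± 0.07 (adjusted p = 5.6e-20). WSB (median 4461), PWK (4496) and NZO (4620) were highest and did not differ from each other beyond their spread as neighbours. B6 (−0.24 ± 0.05) and CAST (−0.20 ± 0.06) were lower and AJ (0.17 ± 0.06) higher than the mean of the others, but with acinar markers as a covariate neither CAST (−0.13) nor AJ (−0.01) was called. On sums of the libraries of each sample, B6 (−0.20), CAST (−0.16) and AJ (0.20) were not called.

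Tek, the receptor of angiopoietins, set 129 apart. It held 516, 647 and 872 (lowest, median, highest, n = 10), and 5 of these libraries lay above all others, whose highest was 634. Levels were 0.75 ± 0.08 above the mean of the others on the log2 scale in 129 (adjusted p = 5.5e-14), 0.45 ± 0.07 in AJ and 0.32 ± 0.07 in WSB. On sums of the libraries of each sample, AJ (0.44) and WSB (0.29) were not called. Levels of Tek were lower in B6 (−0.58 ± 0.07), where 18 libraries held 185, 311 and 453, and in CAST (−0.43 ± 0.07). NOD was not called (−0.18 ± 0.08, adjusted p = 0.057). Tie1, its partner receptor, varied least of the 10: WSB was higher (0.25 ± 0.05) and NOD (−0.31 ± 0.06) and B6 (−0.28 ± 0.05) lower, and no neighbouring strains in its order differed beyond their spread. On sums of the libraries of each sample, Tie1 was not called in WSB (0.25) or B6 (−0.27).

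The junction genes went the other way in NOD. Pecam1, an adhesion molecule of endothelial cells that leukocytes and platelets also carry, held 1786, 2683 and 4323 in NOD (lowest, median, highest), against 912, 1546 and 2254 in the other 81 libraries. In NOD, 6 of 10 libraries lay above every other library, and the log2 fold change against the others was 0.84 ± 0.07 (adjusted p = 8.1e-18). Cdh5, the cadherin of endothelial junctions, held 961, 1355 and 2154 in NOD, and 4 of 10 libraries lay above all others (0.52 ± 0.07, adjusted p = 1.2e-10). Its 4 NZO libraries, at 1425, 1268, 1349 and 1404, were as high by median (1376), and NOD and NZO did not differ beyond their spread (adjusted p = 0.74). With the leukocyte markers as a covariate, neither gene was called in NOD (Pecam1 0.14, adjusted p = 0.31; Cdh5 0.13, adjusted p = 0.39). B6 and CAST were lowest for both genes, at −0.51 ± 0.06 and −0.37 ± 0.07 for Pecam1 and −0.54 ± 0.06 and −0.58 ± 0.06 for Cdh5.

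Plvap was highest in WSB, where 13 of 16 libraries (5364, 7237 and 9837 as lowest, median and highest) lay above all 75 libraries of the other strains. The log2 fold change of WSB against the mean of the others was 0.64 ± 0.05 (adjusted p = 4.6e-20). B6 was lowest (2644, 3410 and 4462; −0.61 ± 0.05), and NOD was not called (−0.10 ± 0.06, adjusted p = 0.16). Emcn, a sialoglycoprotein of capillary and venous endothelium, was lowest in NOD, where 9 of 10 libraries (421, 617 and 702) lay below all others (−0.96 ± 0.07, adjusted p = 3.6e-21). It was highest in WSB (1126, 1456 and 1937; 0.55 ± 0.05), which did not differ from NZO beyond their spread (adjusted p = 0.45), and by TPM AJ was highest. It was lower in CAST (−0.32 ± 0.06) and PWK (−0.26 ± 0.09), where the call was lost without PWK replicate 1, 2 or 4.

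Esm1 had the widest range. The 5 PWK libraries held 704, 655, 774, 569 and 767, and the NOD libraries 393, 902 and 1309 (lowest, median, highest). The 129 libraries held 2591, 2887 and 3594 and the B6 libraries 1991, 2576 and 2967, so that neither overlapped with PWK or NOD. The log2 fold change of PWK against the mean of the others was −1.46 ± 0.15 (adjusted p = 2.5e-14), and that of NOD −1.04 ± 0.10 (adjusted p = 2.0e-15). PWK was also lower than NOD, its neighbour. Esm1 was higher in 129 (0.90 ± 0.09), B6 (0.72 ± 0.07), WSB (0.52 ± 0.08) and NZO (0.39 ± 0.14). In NZO the call rested on few libraries: they held 2102, 2706, 2486 and 1096, and the log2 fold change ran from 0.24 to 0.62 over the fits that each left out 1 NZO or PWK library, with 6 of 9 called.

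**Figure D2:**
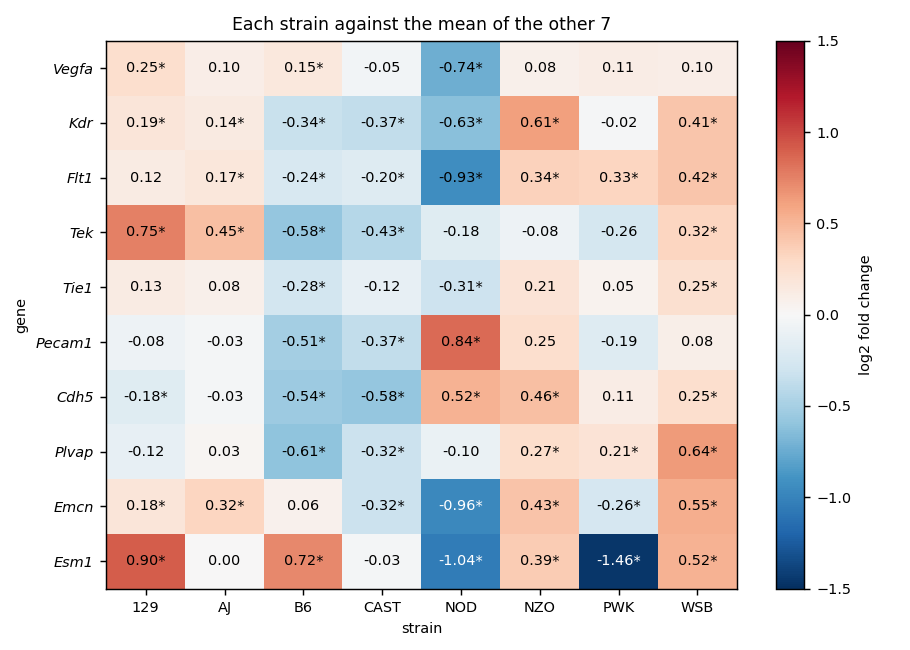
Log2 fold change of each strain against the mean of the other 7, by gene (vertical) and strain (horizontal); red is higher, blue lower, and an asterisk marks an adjusted p under 0.05. The NOD column holds both signs (Pecam1 0.84, Emcn −0.96), whereas the called values of WSB and NZO are all above 0 and those of CAST all below 0.

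Read by strain, WSB was higher for 8 members and lower for 0, against 26.5% and 29.7% of all genes. NZO was higher for 6 and lower for 0 (20% and 14.2% of all genes), AJ for 4 and 0 (24.9% and 32.1%), and 129 for 5 and 1 (27.8% and 21%). CAST was higher for 0 and lower for 7 (26.7% and 31%), and B6 was higher for 2, Esm1 and Vegfa, and lower for 7 (25.6% and 27.5%). PWK was higher for 2, Flt1 and Plvap, and lower for 2, Emcn and Esm1 (23.1% and 21.9%). NOD was higher for 2 and lower for 6 (35.8% and 29.5%). Some of these counts changed with the libraries or the covariate. On sums of the libraries of each sample, WSB was higher for 5, NZO for 4, 129 for 2 and AJ for 1. CAST was then lower for 5, B6 higher for 1 and lower for 4, and PWK higher for 0 and lower for 1. NOD kept its counts on these sums but was higher for 0 and lower for 5 with the leukocyte markers as a covariate. NZO was higher for 3, 4 and 4 without its replicates 1, 2 and 3, and PWK was higher for 1 and lower for 1 without its replicate 1, 2 or 4. With acinar markers as a covariate AJ was higher for 1 (Tek) and lower for 1 (Pecam1), and 129 was higher for 2 and lower for 0 without the 12 libraries. The median log2 fold change over the 10 members was 0.37 in WSB, 0.30 in NZO, −0.31 in B6, −0.32 in CAST and −0.47 in NOD, where the medians of all genes lay between −0.04 and 0.03. In B6, Esm1 and Vegfa were higher while 7 of the other 8 genes were lower, and Emcn was not called (0.06 ± 0.05, adjusted p = 0.34).

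The strain pattern was set against 24 further endothelial genes, all of which differed between strains, near the 97.4% of all genes. B6 was lower for 23 of them, against 27.5% of all genes, and higher for 1 (median log2 fold change −0.48). CAST was lower for 17 (against 31%, median −0.36), NZO higher for 16 (20%, 0.57) and WSB higher for 12 and lower for 2 (26.5% and 29.7%, 0.20). NOD, however, was higher for 16 and lower for 3 (35.8% and 29.5%, 0.35), whereas the 9 endothelial members were higher for 2 and lower for 5 there (−0.31). Ramp2, which is needed for the adrenomedullin receptor of endothelium, was 0.57 higher on the log2 scale in NOD, and the ETS factor gene Fli1, which leukocytes also express, 2.15 higher. Esam, another junction gene, was near the others (−0.06, not called). Mural cell genes, which mark pericytes and smooth muscle, were higher for 11 of 11 in NZO (against 20% of all genes, median 1.33) and in WSB (26.5%, 0.71). They were lower for 11 of 11 in 129 (against 21% of all genes, median −0.80) and in B6 (27.5%, −0.62). Rgs5, a pericyte gene, reached a mean of 118 TPM in NZO against 13.9 in CAST.

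The other 15 genes of the VEGF and angiopoietin pathway also all differed between strains, which again is near the background. NOD was higher for 6 and lower for 7 (median −0.14), against 35.8% and 29.5% of all genes, and NZO higher for 8 and lower for 0 (0.32), against 20% and 14.2%. Pgf, placental growth factor, which binds FLT1, was lowest in NOD (−1.01, mean 6.01 TPM) and highest in NZO (1.20, 23.7 TPM). Nrp1, a co-receptor of KDR, was lower in NOD (−0.55), B6 (−0.46) and CAST (−0.38) and higher in PWK (0.52), WSB (0.47) and NZO (0.33). Dll4, the Notch ligand of endothelial tip cells, was lower in CAST (−0.79), PWK (−0.55) and NOD (−0.26) and higher in NZO (0.76), AJ (0.55) and 129 (0.22). Vegfd, a ligand of lymphatic growth, was 3.00 higher in PWK, at a mean of 3.05 TPM.

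Genes of the hypoxia response, of which Vegfa is a known target, were higher for 8 of 16 and lower for 4 in NOD (median 0.18), against 35.8% and 29.5% of all genes. Ldha was 2.53 higher in NOD (76.3 TPM) and Slc2a1 1.19 higher (11.3 TPM). The highest strain for Egln3, an oxygen sensor that hypoxia induces, was NZO (2.66 above the others), where Vegfa was not called (0.08 ± 0.12, adjusted p = 0.67). Egln3 was also higher in NOD (1.28), where Vegfa was lower, and in 129 (1.18), where Vegfa was higher. It was lower in PWK (−2.64), AJ (−1.43) and CAST (−0.57), where Vegfa was not called. Beta cell genes, the source of islet VEGF-A, were lower for 6 of 8 in NOD and higher for 0 (against 29.5% and 35.8% of all genes, median −0.39). Slc30a8, the zinc transporter of insulin granules, was at −0.73. In NZO, 1 of the 8 beta cell genes was higher and 3 were lower (against 20% and 14.2% of all genes, median −0.28). Iapp, islet amyloid polypeptide, was 0.42 higher, whereas Slc30a8 was at −0.99 and the transcription factor gene Mafa at −1.14.

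The NOD libraries differed widely among themselves. Their leukocyte markers (11 genes) summed to between 35.7 and 2937 TPM, with a median of 477, against 11.8 to 143 TPM in the other 81 libraries. Ptprc, the pan-leukocyte gene CD45, had a median of 40.5 TPM in NOD and of 1.33 TPM elsewhere, and the T cell gene Cd3e 17.9 and 0.10 TPM. Inflamed or high endothelium, the vessel type through which lymphocytes leave the blood, was represented by 8 genes. Of the 9 leukocyte genes tested, 9 were higher in NOD (against 35.8% of all genes, median log2 fold change 3.88), and so were 6 of the 6 tested genes of inflamed endothelium (3.75). Those of inflamed endothelium were also higher for 6 in NZO (20%, 1.71) and lower for 6 in B6 (27.5%, −1.74). Glycam1, a ligand of L-selectin made by high endothelial venules, ranged from 3.12 to 933 TPM in NOD (median 148), against a median of 0.20 TPM elsewhere, where the highest library held 111 TPM. Madcam1, the mucosal addressin, had medians of 12 and 0.17 TPM, and was 5.28 higher in NOD on the log2 scale. Vcam1, which holds leukocytes to inflamed endothelium, was 4.57 higher, Ackr1 4.01 and Sele, E-selectin, 3.48.

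**Figure D3:**
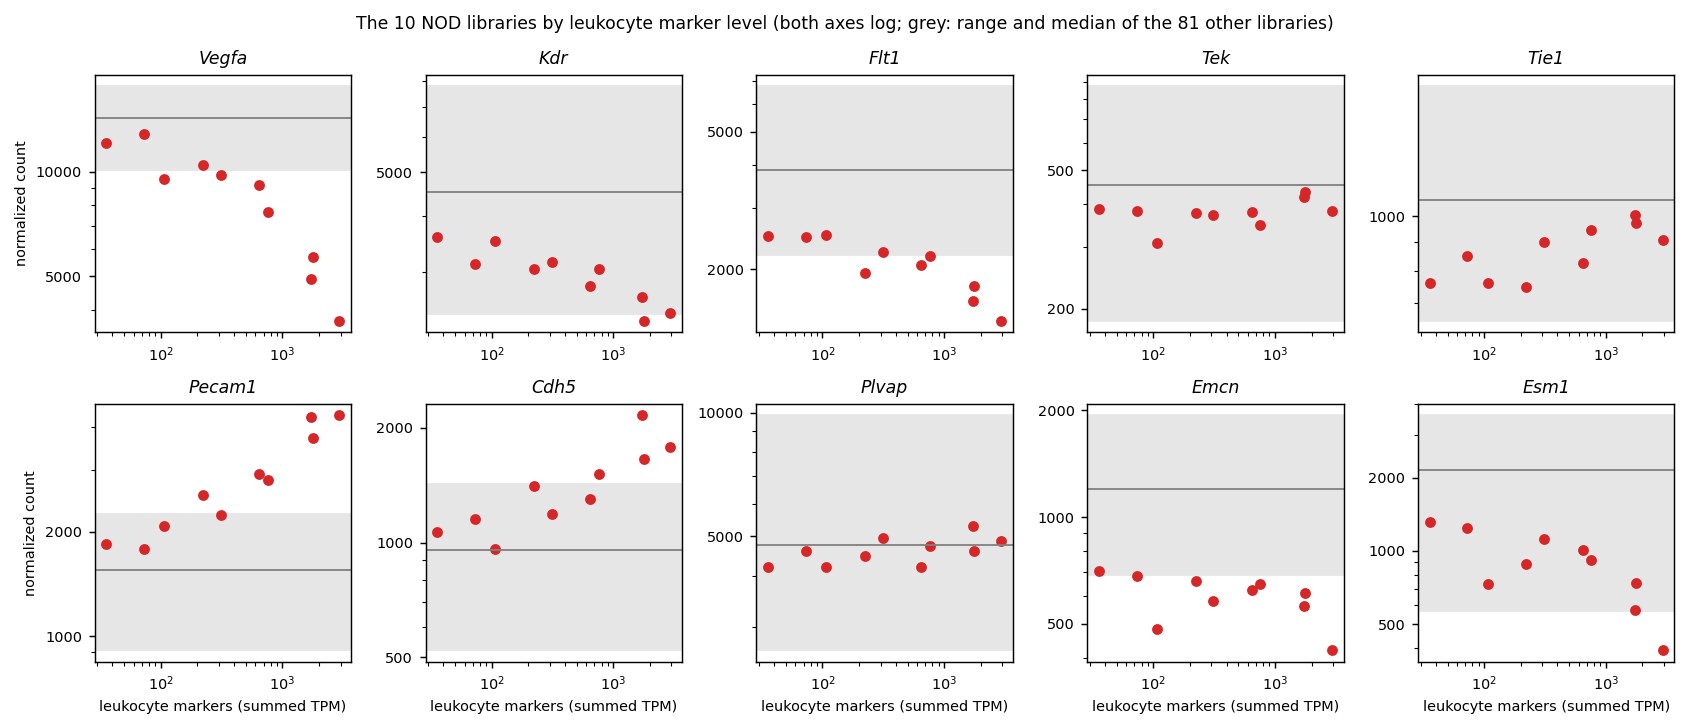
Normalized counts of each gene against the summed TPM of 11 leukocyte markers in the 10 NOD libraries (both axes log); the grey band and line are the range and median of the 81 libraries of the other strains. Vegfa runs from 12829 down to 3729 and Pecam1 from 1786 up to 4323 toward the libraries with more leukocyte markers. Vegfa, Kdr, Flt1, Tek, Tie1, Emcn and Esm1 lie under the median of the other strains in all 10.

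The members moved with these markers in part. NOD replicate 7, with the most leukocyte markers (2937 TPM) and Glycam1 at 933 TPM, held the lowest Vegfa (3729), Flt1 (1421), Emcn (421) and Esm1 (393) and the highest Pecam1 (4323). NOD replicate 4, with the fewest (35.7 TPM), lay within the range of the other strains for these 5 genes and Cdh5. Pecam1 (1836) and Cdh5 (1067) were above the medians of the other strains, which were 1546 and 956. Vegfa (12121), Flt1 (2504), Emcn (702) and Esm1 (1309) were under them, at 14293, 3871, 1198 and 2155. Plvap (4199 to 5302), Tie1 (747 to 1007) and Tek (309 to 433) kept a narrow range over the 10 NOD libraries.

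Without the 3 NOD libraries that held more than 1000 TPM of leukocyte markers (replicates 7, 9 and 10), the log2 fold changes of NOD against the others were −0.49 for Vegfa, −0.53 for Kdr, −0.80 for Flt1, −0.89 for Emcn, −0.83 for Esm1, 0.54 for Pecam1 and 0.30 for Cdh5, and all 7 remained called. Tek, which was not called over all libraries, was called lower in that fit (−0.24, adjusted p = 0.033). With the summed leukocyte markers as a covariate over all 91 libraries, Flt1 (−0.70, adjusted p = 5.4e-07), Emcn (−0.89, adjusted p = 1.3e-09), Kdr (−0.48), Esm1 (−0.68) and Tie1 (−0.43) were still called, whereas Pecam1, Cdh5 and Vegfa were not. The marker sum and the strain are closely tied, so this fit cannot fully separate them. NOD, 129, NZO and PWK also lie in 1 range of running library numbers, apart from the other 4 strains, so that this range and the strain cannot be told apart against AJ, B6, CAST and WSB.

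Of the 3 lymphatic markers tested, 1 was higher and 2 were lower in NOD, against 35.8% and 29.5% of all genes. Lyve1, a hyaluronan receptor of lymphatic vessels and some macrophages, was higher in 129 (1.54, mean 16.7 TPM). It was lower in NOD (−0.81, 3.71 TPM), PWK (−0.82, 3.72 TPM) and CAST (−0.30). Pdpn was 2.74 higher in NOD at a mean of only 1.31 TPM. It was also higher in NZO (2.06) and was lower in B6 (−1.22) and WSB (−1.30). Prox1, which is also expressed in islet endocrine cells, was lower in NOD (−0.39) and CAST (−0.42). Ccl21a had a median of 16.2 TPM in NOD and of 0 elsewhere, and Mmrn1 was at 0 in 51 of the 81 other libraries and at 0.65 TPM at most in NOD.

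Other cell types in the preparations also differed between strains. Acinar genes were higher for 9 of 9 in NOD (against 35.8% of all genes, median 1.52) and in CAST (26.7%, 1.45). They were lower for 9 of 9 in AJ (against 32.1% of all genes, median −3.77) and in 129 (21%, −1.69). Fibroblast genes were higher for 6 of 6 in NOD (35.8%, 2.01), and duct genes for 4 of 4 in NZO (20%, 1.62). Erythrocyte genes were higher for 3 of 5 in NOD (35.8%, 0.54) and in NZO (20%, 1.02). They were lower for 3 in B6 (27.5%, −0.89), the strain with the lowest Plvap. With acinar markers as a covariate, all 10 strain effects on the members were still called, but Kdr (−0.03) and Flt1 (−0.01) in AJ changed sign from 0.14 and 0.17.

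Over all strains, no member differed between sexes (0 of 10, edgeR, against 4% of all genes). The largest log2 fold change, male minus female, was that of Tek (0.15 ± 0.05, adjusted p = 0.092). Without the 12 libraries that went against their sex label, Tek alone was called (0.23, adjusted p = 0.0021). The share of all genes called in that fit is not given here.

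The sex difference itself differed between strains. In 6 strains each label had 5 libraries or more. Over these 82 libraries the interaction of strain and sex was called for 4 of 10 members, Kdr (adjusted p = 0.00089), Flt1 (0.029), Tie1 (0.0023) and Tek (0.00027), against 5.90% of all genes. Without the 12 libraries it was called for 7, the same 4 with Pecam1, Emcn and Vegfa, against 17.6% of all genes.

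The labels of B6 all matched the Xist and Y-linked counts. In this strain Kdr, Flt1, Plvap, Tie1 and Tek were higher in males (5 of 10 members, against 9.13% of all genes that differed in either direction). Tie1 held 706, 788 and 869 (lowest, median, highest) in the 9 females and 904, 986 and 1083 in the 9 males, so that the sexes did not overlap (0.35 ± 0.08, adjusted p = 0.00094). Tek held 185, 238 and 315 in females and 308, 357 and 453 in males (0.59 ± 0.09, adjusted p = 9.4e-06), and 8 of 9 males lay above all females. Kdr held 2418, 3168 and 3424 in females and 3293, 3984 and 4467 in males (0.37 ± 0.07, adjusted p = 0.00029). Within the lower and higher ranges of running library numbers, the log2 ratio of male to female means was 0.33 and 0.36 for Tie1, 0.56 and 0.62 for Tek and 0.22 and 0.48 for Kdr.

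Acinar content also differed by sex in B6. The acinar markers had a median of 139529 TPM in B6 females and of 15925 TPM in B6 males, and all 9 acinar genes had a called interaction of strain and sex. With the acinar markers as a covariate, a choice made after seeing the data, the interaction was called for Tek alone (adjusted p = 0.012), against 0.382% of all genes, and Kdr was at an adjusted p of 0.058. In that fit the B6 males remained higher for Tek (0.57), Tie1 (0.34), Plvap (0.33) and Kdr (0.31), 4 of 10 members against 1.69% of all genes, and Flt1 (0.18, adjusted p = 0.38) was not called.

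In NOD, no member was called between the sexes with all libraries (Vegfa 0.39 ± 0.14, adjusted p = 0.12). Without the 2 NOD libraries that went against their label, males were higher for Vegfa (0.48, adjusted p = 0.00055) and lower for Pecam1 (−0.50, adjusted p = 0.0035), 2 of 10 members against 23.8% of all genes. Leukocyte markers had a median of 701 TPM in the 4 remaining NOD females and of 89.9 TPM in the 4 remaining males, and their part in this difference was not tested.

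**Figure D4:**
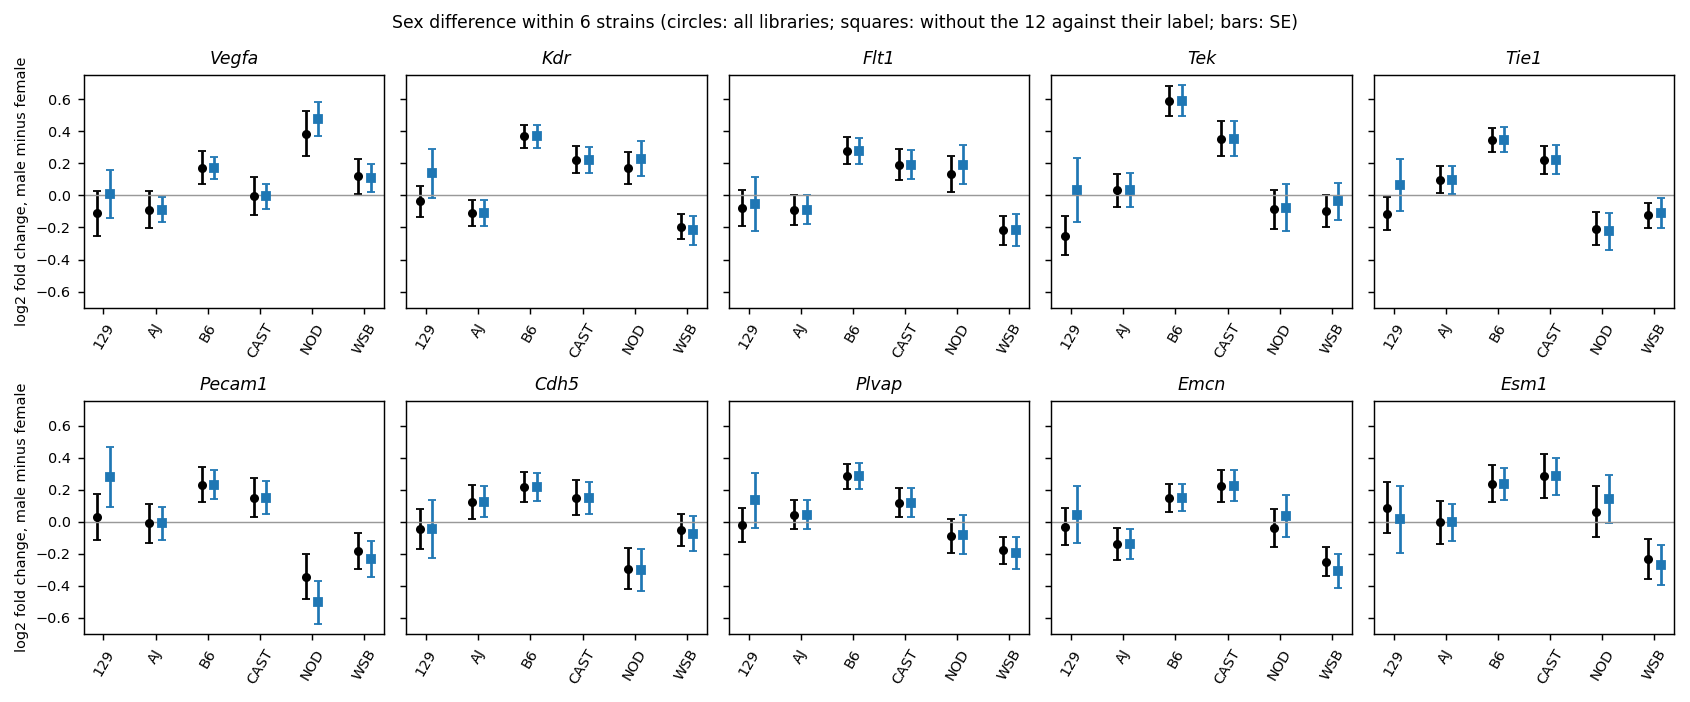
Log2 fold change of males against females in each of 6 strains, with SE as bars; black circles use all libraries and blue squares leave out the 12 that went against their label. B6 is above 0 for all 10 genes, up to 0.59 for Tek, and WSB is below 0 for 9 of them.

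Between the lower and higher ranges of running library numbers, within AJ, B6, CAST and WSB, Kdr (0.11 ± 0.05, adjusted p = 0.040) and Tek (0.22 ± 0.06, adjusted p = 0.00071) were higher in the higher range, 2 of 10 members against 44.3% of all genes. All 10 strain effects over these 4 strains were called with and without the range as a covariate.

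Across libraries, taken as deviations from their strain means, the 9 endothelial members varied together to unequal degrees. The median Pearson r over the 36 pairs was 0.44 in all 91 libraries, which share depth and tissue composition. Plvap with Tie1 (0.84), Kdr with Flt1 (0.81) and Pecam1 with Cdh5 (0.73) were the closest pairs. Esm1 varied with Flt1 (0.57), Kdr (0.54) and Emcn (0.51) and hardly with Plvap (−0.03) or Tie1 (0.01).

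Vegfa varied with Esm1 (0.57) and Kdr (0.41) and against Pecam1 (−0.53) and Cdh5 (−0.46). Over the 81 libraries of the other strains, these values were 0.24 with Esm1, 0.32 with Kdr, −0.02 with Pecam1 and −0.15 with Cdh5. Plvap with Tie1 (0.84) and Kdr with Flt1 (0.80) were as close without NOD, whereas Pecam1 with Cdh5 was at 0.62, below Kdr with Emcn (0.70).

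**Figure D5:**
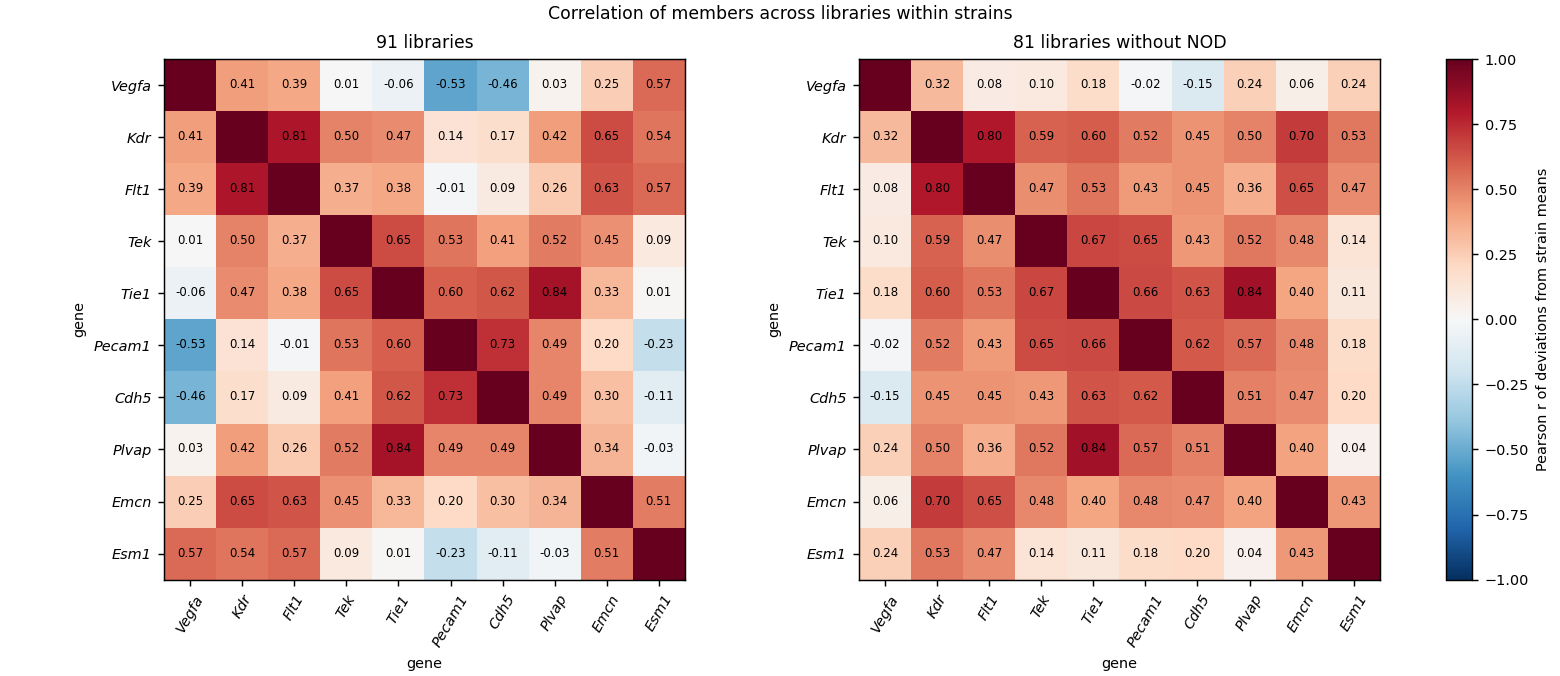
Pearson r between genes across libraries, after subtracting strain means of log2(normalized count + 1), in all 91 libraries (left) and in the 81 without NOD (right); red is positive and blue negative. The negative values of Vegfa with Pecam1 (−0.53) and Cdh5 (−0.46) on the left are −0.02 and −0.15 on the right.

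Outside the 10 genes, those closest to the mean of the 9 endothelial members were Epas1 (r = 0.77, HIF-2 alpha, abundant in endothelium), Ace (0.76, angiotensin-converting enzyme), Cyyr1 (0.76), Adgrl4 (0.76), Plpp1 (0.73), Podxl (0.71), Jcad (0.71, a junction protein), Nrp1 (0.70), Adgrf5 (0.70) and Esam (0.70), over 91 libraries. Without NOD the same genes had r of 0.71 to 0.82, and 6 of them were among the 10 closest. Adgrf5, Esam, Nrp1 and Podxl then ranked 12th, 13th, 14th and 15th. The genes closest to Vegfa were Nkx6-1 (r = 0.88), a transcription factor gene of beta cells, Fbxl16 (0.83), Cnnm1 (0.81), Dlg3 (0.80) and Map7 (0.80). Without NOD, Nkx6-1 (0.71) was still the closest of 15181 genes and Fbxl16 (0.63) the 6th, whereas Map7 (0.27) ranked 1642nd.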

How the data were processed

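Islet RNA from 8 strains and both sexes was measured in 91 libraries. The authors quantified reads with RSEM and GENCODE vM18 on build mm10 (per the labels and the study's methods) and deposited 1 table for each library with expected counts, which carry no scaling between libraries, and with TPM. The TPM values deposited are scaled within a library. The RSEM version and read filters are not given in the sources used here. The deposited tables pair Ensembl identifiers with symbols. Of 54146 genes, 54079 were matched to GENCODE M21 (GRCm38) for biotype and chromosome and 67 were not.

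Only protein-coding genes of the autosomes and X entered. Genes in the lowest 10% by variance were dropped, then those detected in under 85% of libraries, which left 15191. Expected counts were rounded and fitted with edgeR 4.0.16 (quasi-likelihood, upper-quartile normalization, R 4.3.3) as strain plus sex over all libraries, and adjusted by Benjamini and Hochberg over all genes tested, and over all genes and all 28 pairs for pairs of strains. Adjusted p-values under 0.05 were called. Each strain was set against the mean of the other 7 with equal weight. A normalized count is the count over its library's effective size, rescaled by the average of those sizes. Correlations used log2(normalized count + 1). At these depths 3 counts, the floor used, correspond to 0.0852 to 0.177 CPM, which covers counting error only. The tests were first run on simulated data.

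The 10 members, the 12 gene lists (further endothelial, VEGF and angiopoietin pathway, hypoxia response, mural, lymphatic, inflamed or high endothelium, leukocyte, acinar, beta, duct, fibroblast, erythrocyte) and the tests were chosen with earlier results of these data known. From each list, counts and up to 4 genes with the smallest strain-effect p were named; likeness named the 10 genes closest to the endothelial members and the 5 closest to Vegfa. Glycam1, Cd3e, Ccl21a and Mmrn1 were not tested, because of the filter, and were named after their values were seen.

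Alternatives were TMM, median-ratio size factors, 2 other filters, DESeq2 1.42.0, voom in limma 3.58.1, a fit with sex left out, marker covariates, sums of the libraries of each of the 16 samples, leaving out single NZO or PWK libraries, an added log2 fold change of at least 1, and TPM in place of normalized counts. Leaving out 3 NOD libraries, an acinar covariate for the interaction and correlations without NOD were chosen after seeing the data. Figures were drawn with matplotlib 3.10.9. The ATAC-seq and Hi-C data of the study were not analysed here.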

Additional observations from a re-analysis of the deposited data

Results flagged for a closer look

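In 129, 1 library stood apart from the other 9 for Pecam1 and another for Esm1. Replicate 10 held a normalized Pecam1 count of 2025, against 1466 to 1737 in the other 9, and its leukocyte markers summed to 143 TPM, against 12.8 to 42.2 TPM in the others. Replicate 8 held a normalized Esm1 count of 3594, against 2591 to 3044. These were 2 of 40 groups of libraries examined (10 genes in 129, NOD, NZO and PWK), and chance alone gives about 5% of groups such a library.

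The difference between males and females differed between strains for Kdr (adjusted p = 0.00089, edgeR interaction test), Flt1 (0.029), Tie1 (0.0023) and Tek (0.00027). In B6, males were higher for all 4 (0.37, 0.28, 0.35 and 0.59 on the log2 scale), whereas the values in WSB were −0.20, −0.22, −0.12 and −0.10, none of them called. Acinar markers differed between the sexes of B6 as well, and with them as a covariate the interaction was called for Tek alone.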

How the results depend on the processing

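The strain effect was called for all 10 members under every alternative fitted, and for 7 of them where the most distant strains also had to lie 1 or more apart on the log2 scale. Against 52 called differences of a strain from the others, sums of the libraries of each of the 16 samples gave 31 calls, which held 30 of the 52, and a log2 fold change of at least 1 left 2 (Esm1 in NOD and PWK). The sums lost Cdh5, Kdr, Emcn and Vegfa in 129, Kdr, Flt1 and Tek in AJ, Kdr, Flt1, Tie1 and Vegfa in B6, Kdr and Flt1 in CAST, Flt1, Plvap and Esm1 in NZO, Flt1, Plvap and Emcn in PWK, and Tie1, Tek and Esm1 in WSB, and 0 in NOD. For pairs of strains these settings gave 117 and 23 calls in place of 189. Under TMM, median-ratio size factors, both other filters, DESeq2 and no sex covariate all 52 were called again. Of the 52, 1 lost its call under voom, 6 without the 12 libraries that went against their sex label, 7 with the acinar and 7 with the leukocyte covariate. Of those 7 with the acinar covariate, Kdr (−0.033) and Flt1 (−0.014) in AJ also reversed in sign; the cause was not tested. The sex effect rose from 0 to 1 member and the interaction from 4 to 7 without the 12 libraries, and the interaction fell to 1 with the acinar covariate. Leaving out single NZO or PWK libraries gave 49 to 53 calls. Of NZO, Flt1, Plvap and Esm1 lost their call in some of these fits, and so did Plvap and Emcn of PWK and, without NZO replicate 4, Kdr in AJ (0.12) and Vegfa in B6 (0.13).

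By TPM, the highest strain was the same for 7 members (not for Flt1, Emcn and Tie1) and the lowest for 9 (not for Tie1). No paired analysis was possible because the labels give no replicate numbers shared between groups, and those used here only name libraries. With 4 and 5 libraries, NZO and PWK had the fewest libraries behind their values.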
